A study of Mus musculus with 7 samples.

Results

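The splicing factor genes described here are the protein-coding genes of 5 families of pre-mRNA splicing proteins, chosen by symbol alone (Srsf, Hnrnp, Sf3a or Sf3b, Snrp and U2af). The rule found 56 genes, with 55 different symbols, among the 25469 genes of the table deposited for the series. RNA-sequencing was performed on splenic CD4+CD25+ cells, the fraction that holds regulatory T cells (Tregs), from 3 aged mice of 18 months and 4 young mice labelled as 8 weeks old. All were wild-type male C57BL/6 mice without a treatment in the labels, and the cells were isolated with magnetic beads. The libraries are labelled as biological replicates, 3 aged and 4 young, and the question was which of these genes differed with age.

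Splicing removes introns from pre-mRNA on the spliceosome, a machine of small nuclear RNAs and proteins (snRNPs). The U1 snRNP recognises the 5′ splice site, U2AF binds the end of the intron, and the U2 snRNP, with its SF3A and SF3B subunits, engages the branch point. The Sm proteins form the ring on which most of these snRNPs are built. SR proteins (Srsf genes) and hnRNPs bind exons and introns and decide, often against each other, which exons are kept. In T cells the best known case is Ptprc, the gene of CD45, whose variable exons are skipped on activation with the help of hnRNPL-like, the product of Hnrnpll. Many of these factors also regulate their own transcripts through exons that trigger decay, and a count per gene cannot tell such transcripts from coding ones.

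The promoters of these genes were read for motifs. RefSeq windows (GRCm38.p6) of 250 bases upstream of a transcription start were found for 48 of the 55 symbols, in 66 windows. Hnrnpll, Hnrnpul2, Sf3b4, Sf3b5, Snrpb, Snrpd1 and U2af2 had no entry. The 3 stretches below are of Hnrnph1 and Hnrnpu, called higher in aged Tregs, and of Sf3b1, the most abundant SF3 subunit, which was not called. Hnrnph3, Snrpc, U2af1l4, Hnrnpl and Srsf5 were candidates too, but too few bases of their windows lay outside annotated exons. For a gene with several windows, such as Hnrnph1, the window with the most motif matches was taken. Bases annotated as exon in GENCODE M21 were cut from the ends of the windows of Hnrnph1 (13 bases) and Sf3b1 (3 bases). They read 5′ to 3′ on the strand of the gene, at chr11:50377441-50377677 (plus strand, upstream of 1 of 5 annotated starts), chr1:178337816-178338065 (minus strand) and chr1:55027482-55027728 (minus strand). Capitals mark matches, on either strand, to the motifs named after them.
Hnrnph1: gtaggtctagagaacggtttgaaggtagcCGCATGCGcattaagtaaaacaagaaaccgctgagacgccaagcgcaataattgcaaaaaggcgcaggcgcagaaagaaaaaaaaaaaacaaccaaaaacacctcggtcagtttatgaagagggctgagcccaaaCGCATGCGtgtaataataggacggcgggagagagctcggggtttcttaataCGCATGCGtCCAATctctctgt
Hnrnpu: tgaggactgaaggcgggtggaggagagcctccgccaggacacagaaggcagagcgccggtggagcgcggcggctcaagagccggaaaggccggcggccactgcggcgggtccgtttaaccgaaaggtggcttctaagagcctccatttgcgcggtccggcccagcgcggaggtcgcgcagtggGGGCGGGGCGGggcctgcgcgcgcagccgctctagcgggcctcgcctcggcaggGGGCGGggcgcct
Sf3b1: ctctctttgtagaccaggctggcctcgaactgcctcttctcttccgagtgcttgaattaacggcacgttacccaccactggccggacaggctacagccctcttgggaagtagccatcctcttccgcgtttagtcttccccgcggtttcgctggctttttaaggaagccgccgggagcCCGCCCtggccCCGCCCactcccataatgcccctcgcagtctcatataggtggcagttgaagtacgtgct
The Hnrnph1 stretch held 3 places that match GCATGCG, a core of the NRF1 motif, 1 CCAAT and 0 GC boxes. The windows of this gene differed. Of its 5, 4 held a GC box, 2 the NRF1 letters and 3 a CCAAT. The Hnrnpu stretch held 2 places with the GC box GGGCGG, and the Sf3b1 stretch 2. Over all members, a GC box stood in 66.7% of windows, against 55.5% of the windows of genes tested and 32.7% of all windows of the same length. The ETS motif CCGGAAG stood in 28.8% of the members' windows, against 13.2% and 6.91%. The NRF1 letters stood in 13.6%, against 5.17% and 3.02%, in 6 of the 48 genes. CCAAT stood in 43.9% of windows (34.9% and 33.8%) and TATAAA in 9.09% (6.5% and 12.4%). These 5 motifs were chosen after sequences had been seen, both strands were searched, and a match is a description of letters.

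In the comparison of aged with young Tregs, 53 of the 56 genes had enough reads to be tested. Of these, 5 were called higher in aged Tregs (Hnrnph3, U2af1l4, Hnrnpll, Hnrnpu and Hnrnph1) and 3 lower (Sf3b4, Snrpc and Hnrnpul2). Called means an adjusted p-value under 0.05 in edgeR's quasi-likelihood test, with Benjamini-Hochberg adjustment over the 13904 genes tested. The 8 called genes are 15.1% of the members, beside 16.7% of all genes tested (9.8% higher and 6.94% lower). The members as a class were called about as often as other genes. Their median log2 fold change, aged over young, was 0.00, beside 0.02 over all genes tested, and ranged from -0.54 to 0.81. The share of gene counts that all members took together was 0.975% to 1.17% in the aged and 1.03% to 1.22% in the young libraries. The lowest shares, in aged replicate 2 and young replicate 1, were those of the libraries with the most haemoglobin counts (13.1% and 10.4%), and the highest, in young replicate 2, that of the library with the least (1.24%). Aged replicate 1 went the other way. With only 1.27% haemoglobin counts its share was 1.16%, below that of aged replicate 3 (1.17%, with 7.60% haemoglobin counts). The part of haemoglobin in these shares was not tested.

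**Figure D1:**
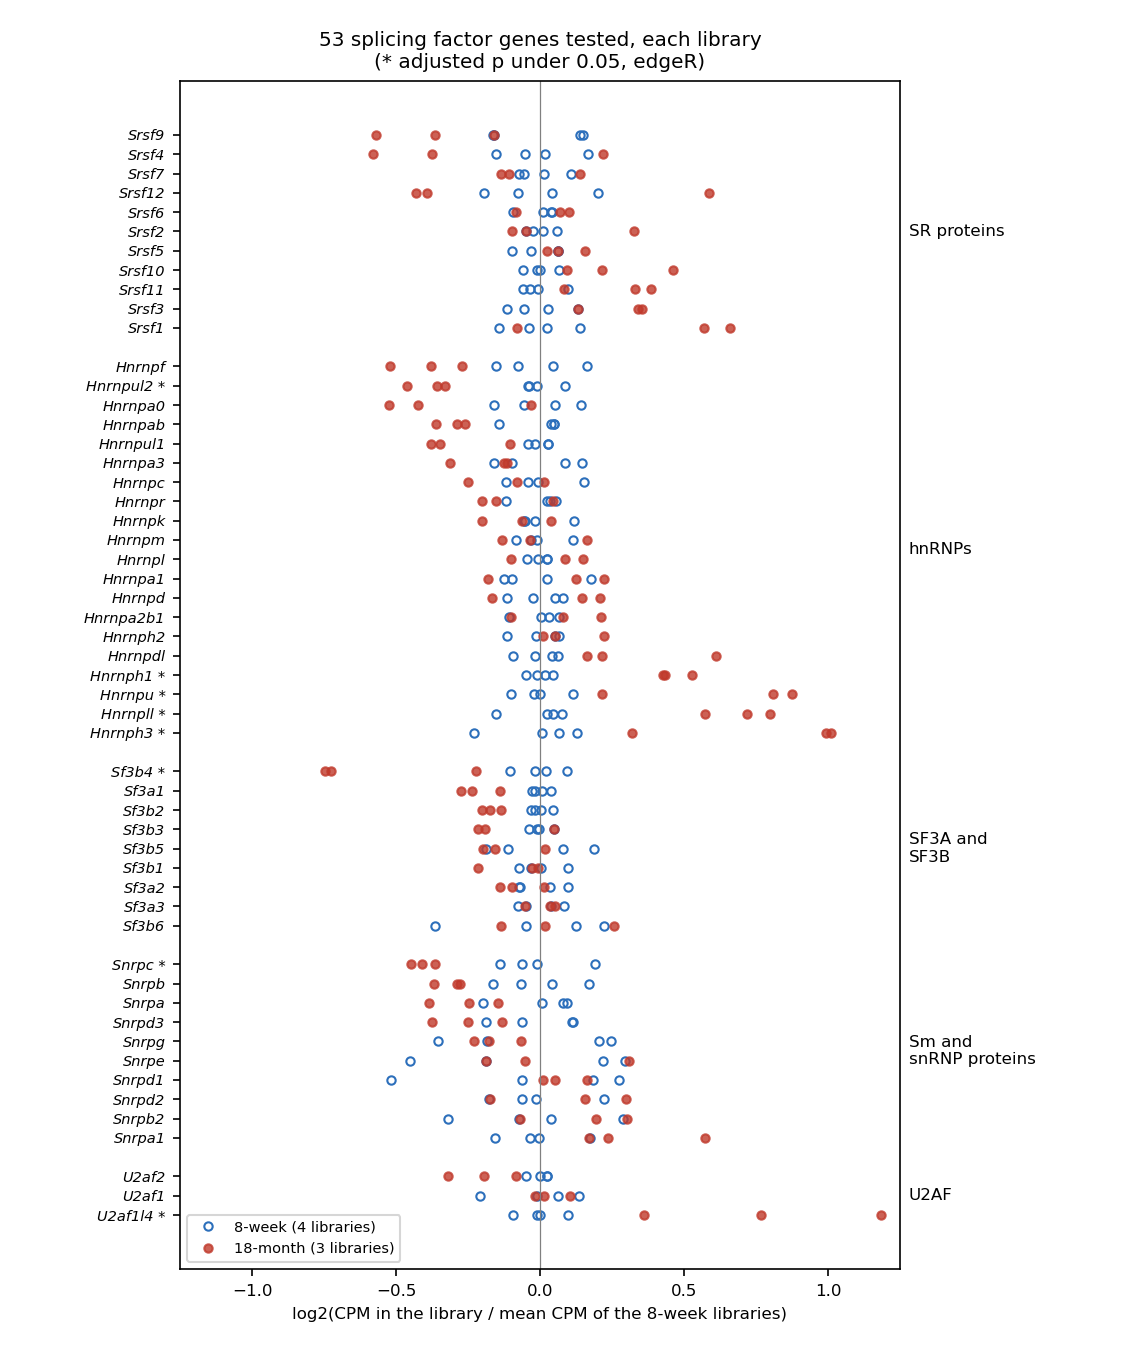
Each row is 1 of the 53 splicing factor genes tested, grouped by role, and each point is 1 library (filled, 3 aged; open, 4 young), placed at the log2 ratio of its scaled count (CPM) to the mean of the 4 young libraries. The aged and young points do not overlap in 18 of the genes, and an asterisk marks the 8 genes called by edgeR.

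In 18 members the aged and young libraries did not overlap, 8 with all aged libraries higher and 10 with all lower, beside 29.9% of all genes tested (15.5% higher and 14.4% lower). At 3 against 4 libraries, the smallest p that a two-sided exact permutation test can give is 0.0571, and these 18 genes reached it. The 95% interval of the log2 fold change lay within 0.5 of 0 in 29 of the 53 members (54.7%), beside 28.9% of all genes tested. Part of this precision goes with abundance. Among genes with a mean log2 CPM of at least 5 (CPM are counts scaled to library size and by the trimmed mean of M-values), the interval lay within 0.5 of 0 in 29 of 49 members (59.2%) and in 50.3% of 5709 genes. In these abundant genes 6 of 49 members (12.2%) were called, beside 16.4% of all. The median coefficient of variation of CPM within an age was 9.17% in aged and 6.19% in young libraries for the members, and 12.2% and 8.35% for abundant genes in general.

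**Figure D2:**
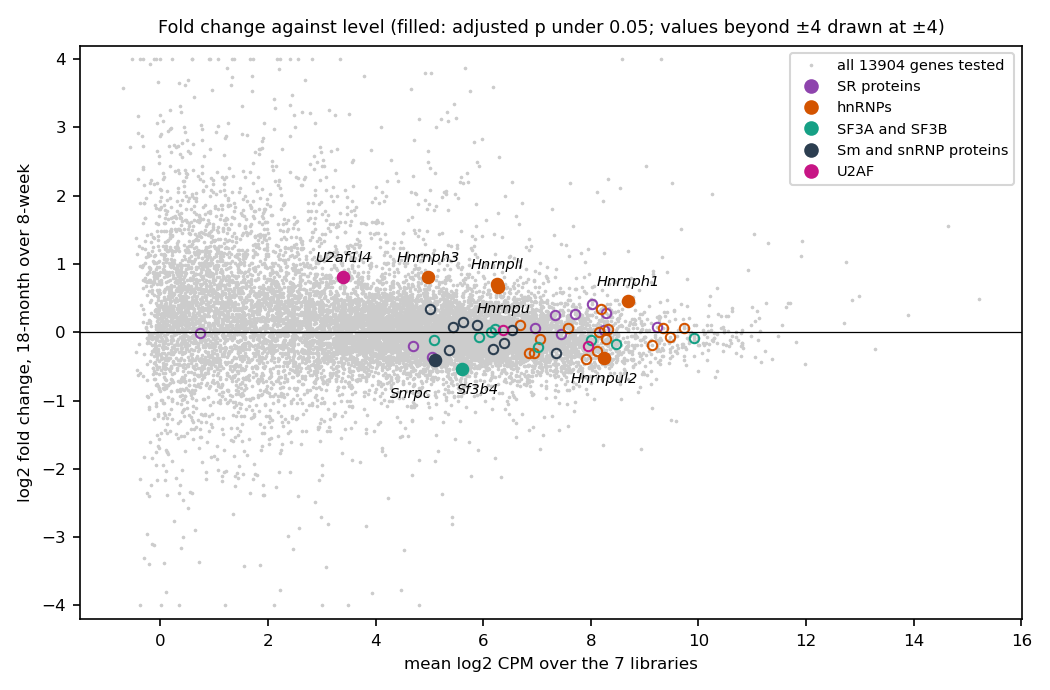
The log2 fold change, aged over young, is plotted against the mean log2 CPM over the 7 libraries for all 13904 genes tested (grey) and for the members by role (coloured, filled where called). The members lie between -0.54 and 0.81, most of them in the narrow band of abundant genes, and U2af1l4 is the least abundant called member.

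The isolates differed in more than age, and some of these differences run along with single results below. Gene counts per library were 10734234 to 11244060 in aged and 12039894 to 13649310 in young libraries. Mitochondrial transcripts took 5.08% to 10.7% of the counts in aged and 2.63% to 3.23% in young libraries, with 10.7% in aged replicate 1. Foxp3 (447 to 622 CPM in aged, 394 to 518 in young), Il2ra, which encodes CD25 (327 to 481 and 471 to 684), and Cd4 (434 to 446 and 493 to 633) had reads in all 7 libraries. Of the 4 Treg markers fixed for the check, 0 were called by edgeR, and DESeq2 and both limma fits called 1 lower. An unadjusted p under 0.05 in edgeR was found for 3 of the 4, beside 4540 of all 13904 genes tested. The log2 fold changes of the 4 by edgeR went both ways, 0.21 for Foxp3, 0.46 for Ikzf2, 0.86 for Ctla4 and -0.61 for Il2ra. Of 4 general T cell markers, Cd3e was higher (0.46, adjusted p = 0.0301) and Cd5 lower (-0.42, adjusted p = 0.0422), while Cd3g (0.29) and Cd4 (-0.30) were not called. Markers of other cells were read too. The 9 neutrophil markers summed to 671 to 5300 CPM in aged and 306 to 990 in young libraries, with 3 called higher and the sum of 5300 in aged replicate 1. The 6 plasma cell markers summed to 6210 to 11300 and 1330 to 7400 (2 called higher), the 4 platelet markers to 20.3 to 38.0 and 9.95 to 16.7 (1 higher), the 4 NK cell markers to 18.9 to 31.7 and 33.4 to 57.3 (1 lower), the 9 macrophage markers to 413 to 571 and 531 to 623 (3 lower), and the 6 dendritic cell markers to 41.1 to 62.9 and 55.8 to 74.8 (1 higher, 2 lower). The 8 B cell markers summed to 827 to 1670 and 1350 to 2110, with 0 called by edgeR, 4 at an unadjusted p under 0.05, 3 called lower by DESeq2 and 1 by each limma fit. The 7 erythroid markers (13200 to 161000 and 12600 to 120000), the 2 CD8 T cell markers (45.4 to 82.0 and 48.8 to 92.7) and the 10 cell cycle genes (1260 to 1680 and 1120 to 2030) gave 0 calls by edgeR, DESeq2, limma voom or limma-trend, and 0 at an unadjusted p under 0.05. No marker was at 0 in every library. Splicing factors are expressed in most nucleated cells, and in bulk samples fewer cells of a type and less RNA per cell cannot be told apart. The part of other cells in the results was not tested.

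Of the 20 hnRNP genes, all tested, 4 were higher and 1 lower by edgeR (25%, beside 16.7% of all genes tested, a difference that was not tested), with a median log2 fold change of 0.03 and a range from -0.39 to 0.81. The 4 that rose were Hnrnpll, Hnrnph3, Hnrnpu and Hnrnph1, and the 1 that fell was Hnrnpul2.

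Hnrnpll (ENSMUSG00000024095, chromosome 17 from 80029487 to 80062334, minus strand, GRCm38) encodes the factor that represses the variable exons of CD45 in activated lymphocytes. Its CPM was 104, 88.9 and 98.2 in the aged libraries and 60.7, 62.9, 61.6 and 53.7 in the young ones, here and below in the order of their replicate numbers. Every aged library lay above every young library. The means were 97.1 ± 7.71 (SD, n = 3) and 59.7 ± 4.13 (SD, n = 4), a fold of 1.63. The log2 fold change was 0.70 (standard error 0.0951, 95% interval 0.48 to 0.92, edgeR adjusted p = 0.00273). Its call held in each of the 7 fits with a library left out, with log2 fold changes from 0.64 to 0.76, the only member of which this was true. Its near relative Hnrnpl, which regulates many of the same exons, had 334, 293 and 349 CPM in aged and 313, 320, 305 and 320 in young libraries. The aged values spread around the young ones, with a log2 fold change of 0.05 (interval -0.18 to 0.28, adjusted p = 0.787 by edgeR). The ratio of Hnrnpll to Hnrnpl counts within a library was 0.312, 0.304 and 0.282 in aged and 0.194, 0.197, 0.202 and 0.168 in young libraries. The means of 0.299 ± 0.0158 (SD, n = 3) and 0.190 ± 0.0155 (SD, n = 4) did not overlap in their libraries (two-sided exact permutation p = 0.0571, 0.0857 adjusted over 3 such ratios). A p of 0.0571 is the smallest this design allows. The ratio restates the values given above for the 2 genes, and no conclusion is drawn from its p-value. Per length, Hnrnpl remained the more abundant, with a mean of 133 TPM (counts per length, scaled to the library) against 15.9 for Hnrnpll.

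The hnRNP H genes encode proteins that bind runs of G in RNA. Hnrnph1 (ENSMUSG00000007850, chromosome 11 from 50376990 to 50386528, plus strand), the most abundant of them at 174 TPM, had 481, 484 and 516 CPM in aged and 369, 346, 362 and 355 in young libraries. The ages did not overlap. The means were 493 ± 19.2 (SD, n = 3) and 358 ± 10.1 (SD, n = 4), and the log2 fold change was 0.46 (standard error 0.0942, interval 0.25 to 0.68, edgeR adjusted p = 0.014). The call was lost without aged replicate 3 and without young replicate 4, where the adjusted p reached 0.0534.

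Hnrnph3 (ENSMUSG00000020069, chromosome 10 from 63014664 to 63024217, minus strand), a shorter member of that family at 23.8 TPM, had 29.7, 47.9 and 47.3 CPM in aged and 26.0, 20.3, 23.9 and 24.9 in young libraries. Aged replicate 1 lay close to the young libraries, and aged replicates 2 and 3 lay far above them. The means were 41.6 ± 10.3 (SD, n = 3) and 23.7 ± 2.49 (SD, n = 4), and the log2 fold change was 0.81 (standard error 0.179, interval 0.40 to 1.22, edgeR adjusted p = 0.0193). The call was lost without aged replicate 2, aged replicate 3 or young replicate 3, with adjusted p-values up to 0.0759. Exons of Rufy2 overlap 3.65% of its exon length.

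Hnrnph2, chosen here after its values were seen as the closest relative of Hnrnph1, had 101, 104 and 117 CPM in aged and 105, 92.6, 104 and 99.4 in young libraries. Its libraries overlapped, with a log2 fold change of 0.10 (interval -0.11 to 0.31, adjusted p = 0.487 by edgeR). The ratio of Hnrnph1 to Hnrnph2 counts was 4.77, 4.63 and 4.42 in aged and 3.53, 3.73, 3.49 and 3.57 in young libraries. Every aged ratio was above every young ratio (two-sided exact permutation p = 0.0571, 0.0857 adjusted over the 3 ratios). As Hnrnph2 was chosen with its values known, this test restates what prompted it, and no conclusion is drawn from its p-value. How reads that fit more than 1 gene of the family were counted is not given in the sources used here, so these ratios are uncertain to that extent.

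Hnrnpu (ENSMUSG00000039630, chromosome 1 from 178321108 to 178337797, minus strand) encodes a large nuclear matrix protein that binds RNA and chromatin. It had 71.5, 108 and 113 CPM in aged and 61.6, 57.5, 66.7 and 60.7 in young libraries. As with Hnrnph3, aged replicate 1 was the aged library nearest to the young ones. The means were 97.3 ± 22.5 (SD, n = 3) and 61.6 ± 3.82 (SD, n = 4), and the log2 fold change was 0.66 (standard error 0.154, interval 0.31 to 1.01, edgeR adjusted p = 0.0235). With a library left out the call held in only 2 of 7 fits, without aged replicate 1 (where the log2 fold change was 0.83) and without young replicate 2. It was lost without aged replicate 2 or 3 or young replicate 1, 3 or 4, with adjusted p-values up to 0.0853. Exons of Cox20 overlap 6.93% of its exon length.

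Hnrnpul2 (ENSMUSG00000071659, chromosome 19 from 8820010 to 8834143, plus strand), whose product resembles hnRNP U, moved the other way. It had 262, 267 and 244 CPM in aged and 333, 327, 326 and 357 in young libraries, without overlap. The means were 258 ± 11.9 (SD, n = 3) and 336 ± 14.5 (SD, n = 4), and the log2 fold change was -0.38 (standard error 0.0946, interval -0.60 to -0.17, edgeR adjusted p = 0.0288). The call held without aged replicate 1 and without young replicate 2, and was lost when any of the other 5 libraries was left out (adjusted p up to 0.107). Its relative Hnrnpul1, also chosen after its values were seen, had 279, 231 and 236 CPM in aged and 297, 306, 292 and 306 in young libraries. All aged values were below all young values, with a log2 fold change of -0.27 (interval -0.51 to -0.04, adjusted p = 0.108 by edgeR), so that it was not called. In 1 of the 7 fits with a library left out, without aged replicate 1, Hnrnpul1 was called lower (-0.37, edgeR adjusted p = 0.0301). With the GC content and length trends removed its log2 fold change was -0.14 (edgeR adjusted p = 0.297). The ratio of Hnrnpul2 to Hnrnpul1 counts overlapped between ages, at 1.04 ± 0.108 (SD, n = 3) and 1.12 ± 0.0396 (SD, n = 4), with a two-sided exact permutation p of 0.286.

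The other 15 hnRNP genes were not called. Hnrnpa1, the most abundant member of all at 516 TPM and a classical antagonist of SR proteins, had 743, 562 and 694 CPM in aged and 584, 720, 648 and 595 in young libraries. Both the highest and the lowest library were aged ones, and the log2 fold change was 0.06 (standard error 0.139, interval -0.25 to 0.38, edgeR adjusted p = 0.789). Just outside the threshold lay Hnrnpab (log2 fold change -0.30, adjusted p = 0.0513 by edgeR) and Hnrnpf (-0.39, adjusted p = 0.0517), both named after their values were seen and both without overlap between ages. Each was called in 6 of 12 alternatives to the processing. Exons of other genes overlap 29.1% of Hnrnpab and 26.4% of Hnrnpf. By the naming of the files, strand was not used in counting, so reads on those stretches cannot be assigned to 1 gene.

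**Figure D3:**
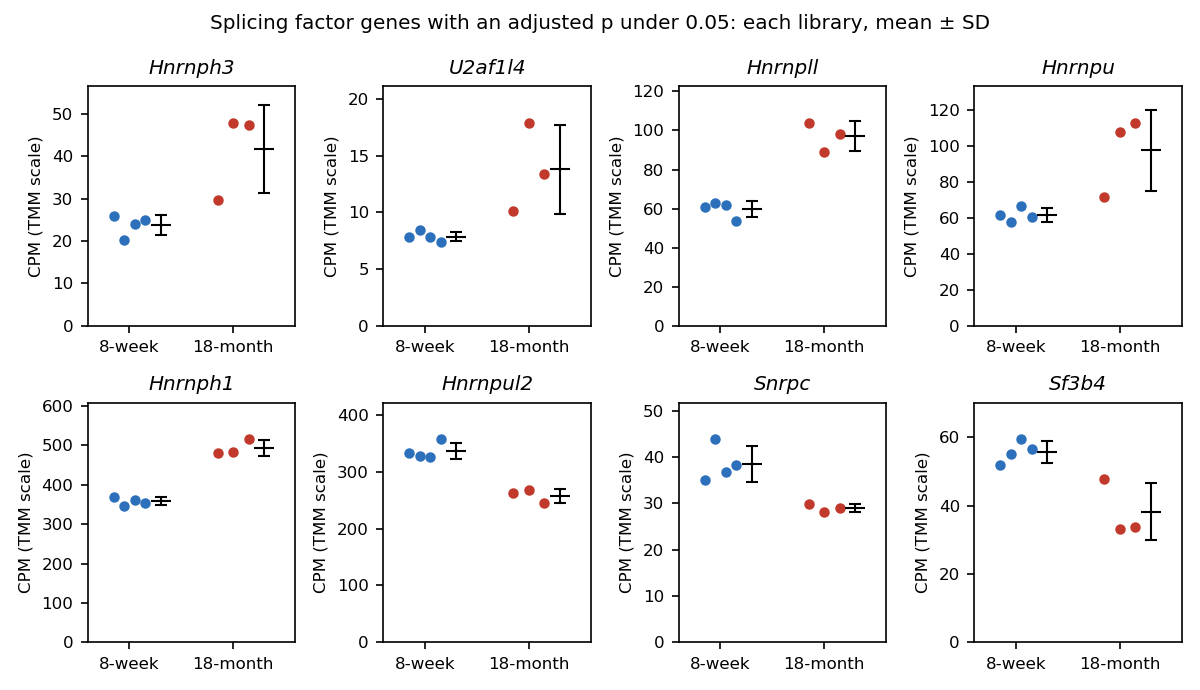
CPM of the 8 called splicing factor genes in each library (4 young in blue, 3 aged in red), with the mean and SD of each age as bars. In Hnrnph3, U2af1l4, Hnrnpu and Sf3b4 aged replicate 1, the leftmost red point, lies nearest to the young libraries, and in Hnrnpll, Hnrnph1, Hnrnpul2 and Snrpc the aged libraries stay close together.

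Of the 11 SR protein genes, 0 were called by edgeR in either direction. An unadjusted p under 0.05 was found for 5, beside 4540 of all 13904 genes tested. DESeq2, limma voom and limma-trend called 0 of the 11 SR genes too. Other settings of edgeR did call some, named here after their values were seen. With the GC content and length trends removed, Srsf11 was higher (adjusted p = 0.0193) and Srsf9 lower (adjusted p = 0.0303), and without aged replicate 1 Srsf4 was lower (-0.48, adjusted p = 0.0432). Their median log2 fold change was 0.07, with a range from -0.36 to 0.42. Srsf5, the most abundant of them at 373 TPM, had 595, 610 and 652 CPM in aged and 546, 610, 572 and 611 in young libraries. Its ages overlapped, and the log2 fold change was 0.08 (standard error 0.105, interval -0.16 to 0.32, edgeR adjusted p = 0.638). Srsf1, the founding SR protein, had 214, 357 and 335 CPM in aged and 230, 205, 249 and 220 in young libraries. Aged replicates 2 and 3 lay above all young libraries, and aged replicate 1 lay among them. The log2 fold change was 0.42 (standard error 0.175, interval 0.02 to 0.82, edgeR adjusted p = 0.137), the largest among the SR genes in either direction. Without aged replicate 1 it was 0.61 and called (adjusted p = 0.00941). Without aged replicate 2 or 3 it was 0.28 and 0.34 and not called (edgeR adjusted p = 0.345 and 0.344). Srsf1 was called in 1 of the 7 fits with a library left out and in 0 of the 12 other alternatives.

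Srsf3, the smallest SR protein and a factor in mRNA export, had 315, 368 and 364 CPM in aged and 266, 293, 315 and 277 in young libraries. The ages did not overlap before rounding, with aged replicate 1 and young replicate 3 next to each other. The log2 fold change was 0.28 (standard error 0.109, interval 0.03 to 0.53, edgeR adjusted p = 0.114). Srsf2, which holds exons in place through both C-rich and G-rich sites, had 118, 153 and 114 CPM in aged and 127, 118, 120 and 123 in young libraries. Its aged values lay on both sides of the young ones, with a log2 fold change of 0.07 (interval -0.20 to 0.34, adjusted p = 0.724 by edgeR), and 25.3% of its exon length overlaps Mettl23 and Mfsd11. Of the 11 SR genes, 4 had an interval within 0.5 of 0, and in the other 7 it reached farther.

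The SF3A and SF3B genes encode the subunits of the U2 snRNP at the branch point. Of the 9, all tested, 1 was called, Sf3b4, which was lower, with a median log2 fold change of -0.11 and a range from -0.54 to 0.05. In 8 of the 9 the interval lay within 0.5 of 0. Sf3b1, whose product contacts the branch point, was the most abundant at 210 TPM. It had 978, 846 and 963 CPM in aged and 1050, 984, 934 and 962 in young libraries, which overlapped. The log2 fold change was -0.08 (standard error 0.116, interval -0.35 to 0.18, edgeR adjusted p = 0.675).

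Sf3b4 (ENSMUSG00000068856, chromosome 3 from 96172332 to 96177564, plus strand) encodes the subunit that binds pre-mRNA upstream of the branch point. It had 47.7, 33.2 and 33.7 CPM in aged and 51.8, 55.1, 59.4 and 56.5 in young libraries. The ages did not overlap, and aged replicate 1 was again the aged library nearest to the young ones. The means were 38.2 ± 8.23 (SD, n = 3) and 55.7 ± 3.14 (SD, n = 4), and the log2 fold change was -0.54 (standard error 0.14, interval -0.86 to -0.22, edgeR adjusted p = 0.033). This was the largest fall among the 53 members tested. With a library left out the call held in 1 of 7 fits, without aged replicate 1 (log2 fold change -0.74, adjusted p = 0.00364), and in the other 6 the adjusted p reached 0.112.

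The Sm and snRNP proteins were represented by 12 genes, of which 10 were tested. Of these, 1 was called, Snrpc, which was lower, with a median log2 fold change of -0.06 and a range from -0.41 to 0.34. Snrpc (ENSMUSG00000024217, chromosome 17 from 27838150 to 27851968, plus strand) encodes the U1 protein that helps the U1 snRNP pair with the 5′ splice site. It had 29.9, 28.2 and 29.0 CPM in aged and 35.0, 43.9, 36.9 and 38.2 in young libraries. The 3 aged values lay close together, below all young values. The means were 29.0 ± 0.842 (SD, n = 3) and 38.5 ± 3.80 (SD, n = 4), and the log2 fold change was -0.41 (standard error 0.107, interval -0.65 to -0.16, edgeR adjusted p = 0.0353). Among the 7 fits with a library left out, the call held in 1, without aged replicate 1, and otherwise lost, with adjusted p-values up to 0.0963.

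Snrpb, which encodes the SmB core protein, was the most abundant of the group at 207 TPM. It had 146, 145 and 137 CPM in aged and 158, 199, 182 and 169 in young libraries, without overlap. The log2 fold change was -0.31 (standard error 0.104, interval -0.55 to -0.08) and missed the threshold (edgeR adjusted p = 0.0721). It was called lower by DESeq2 (-0.34, adjusted p = 0.0308) and by edgeR with the GC content and length trends removed (adjusted p = 0.0489).

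U2AF is the dimer that reads the end of the intron, and its 2 main genes were not called. U2af2, the large subunit that binds the polypyrimidine tract, had 247, 229 and 210 CPM in aged and 253, 266, 262 and 266 in young libraries. All aged values were below all young values, and the log2 fold change was -0.20 (standard error 0.0957, interval -0.42 to 0.02, edgeR adjusted p = 0.193). U2af1, the small subunit that binds the AG of the 3′ splice site, had 80.6, 82.4 and 87.8 CPM in aged and 70.7, 89.6, 85.2 and 81.0 in young libraries. The aged values lay within the range of the young ones, with a log2 fold change of 0.03 (interval -0.20 to 0.26, adjusted p = 0.854 by edgeR).

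U2af1l4 (ENSMUSG00000109378, chromosome 7 from 30563344 to 30567960, plus strand), a relative of the small subunit, had 10.1, 17.9 and 13.4 CPM in aged and 7.87, 8.41, 7.82 and 7.38 in young libraries. The ages did not overlap and the aged values spread widely. The means were 13.8 ± 3.91 (SD, n = 3) and 7.87 ± 0.42 (SD, n = 4), and the log2 fold change was 0.81 (standard error 0.198, interval 0.36 to 1.26, edgeR adjusted p = 0.0274). The call held in 2 of the 7 fits that left out a library (without aged replicate 1 and without young replicate 2) and was lost in the other 5 (adjusted p up to 0.0764, log2 fold change down to 0.58). Exons of Igflr1, Psenen and a second U2af1l4 entry overlap 72.8% of its exon length. If reads on shared stretches were left out, as the naming of the files implies, its reads come mainly from the stretches that no other gene shares. Where its reads lie was not tested, and the gene is uncertain.

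The 3 members that were not tested had few reads. Snrpf, which encodes SmF, had 8, 5 and 8 counts in aged and 6, 2, 6 and 4 in young libraries, and 85.4% of its exon length is shared with Ccdc38 and 4933408J17Rik, so that its counts say little of its level. Snrpn, the imprinted relative of Snrpb best known from neurons, had 0, 1 and 0 counts in aged and 4, 5, 3 and 5 in young libraries, with 34.1% of its exons shared with Snurf and other genes. With 3 counts as the floor, equal to 0.220 to 0.280 CPM, no fold is given. The second U2af1l4 entry (ENSMUSG00000078765) had 0, 1 and 2 counts in aged and 0, 2, 1 and 4 in young libraries.

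Which library was extreme differed between members. Aged replicate 2 was the lowest of the 7 libraries in 18 of the 53 members and the highest in 8, aged replicate 3 the highest in 15 and the lowest in 8, and aged replicate 1 each in 4. Young replicate 1 was the lowest in 11 and young replicate 2 the highest in 11. Across the 53 members, the GC content of the exons and the log2 fold change had a Pearson correlation of -0.409, beside -0.0267 over all genes tested. These are correlations across genes of the same 7 libraries, which are not independent replicates. The median GC content was 43.7% in the 5 members called higher, 48.9% in the 3 called lower and 47.3% in all 53. The part of GC content alone in the calls was not tested. With the trends of GC content and gene length removed together from each library, 6 members were higher and 5 lower. Over all genes tested that fit called 18.3% (1546 higher and 1005 lower), against 16.7% in the main comparison. Hnrnpul2 (-0.30, adjusted p = 0.0523 by edgeR) and Snrpc (-0.34, adjusted p = 0.0553) lay just outside the threshold in that fit, while the other 6 were called. Of its 5 lower calls only Sf3b4 was shared with the comparison above, and Hnrnpab, Hnrnpf, Snrpb and Srsf9 were added, as was Srsf11 among the higher ones.

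The wider splicing machinery was described by 7 lists of other genes, 160 of which were tested. Of these, 11 were called higher and 8 lower by edgeR (11.9%), with a median log2 fold change of -0.02. As in the families above, these shares stand beside 16.7% of all genes tested. Of the 26 snRNP-specific and tri-snRNP proteins, which include Prpf8 at the catalytic core, and of the 26 SR-related proteins and their kinases, 0 were called by edgeR, DESeq2, limma voom or limma-trend. At an unadjusted p under 0.05 in edgeR there were 4 and 3, beside 4540 of all 13904 genes tested. The medians of the 2 lists were -0.04 and -0.01.

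**Figure D4:**
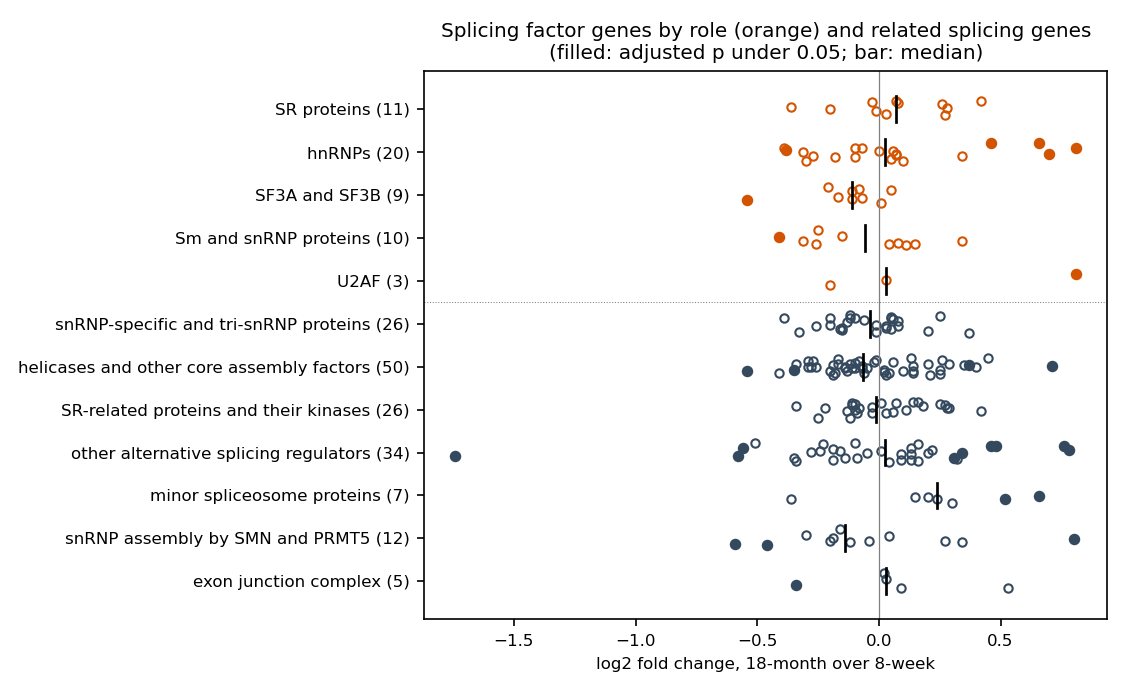
Log2 fold change, aged over young, of each tested gene in the 5 role groups of splicing factors (orange) and in 7 lists of related splicing genes (dark), with a bar at the median of each. Filled points are called by edgeR. The medians lie between -0.14 and 0.24, and Mbnl3, at -1.74, is the farthest point.

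Of the 34 other regulators of alternative splicing tested, 6 were higher and 3 lower by edgeR (26.5%, beside 16.7% of all genes tested, a difference that was not tested), with a median of 0.02. Both limma fits called 6 higher and 4 lower, and DESeq2 called 4 higher and 5 lower. Mbnl3 (ENSMUSG00000036109), a muscleblind RNA-binding protein, fell most. It had 22.2, 10.5 and 13.0 CPM in aged and 55.5, 55.4, 53.8 and 39.0 in young libraries, with no overlap. The means were 15.2 ± 6.17 (SD, n = 3) and 50.9 ± 7.98 (SD, n = 4), and the log2 fold change was -1.74 (standard error 0.259, edgeR adjusted p = 0.00414), and it was called without any 1 of the 7 libraries. Pcbp1 and Pcbp2, which bind C-rich RNA, fell together. Pcbp1 had 135, 124 and 110 CPM in aged and 179, 180, 170 and 199 in young libraries (log2 fold change -0.56, adjusted p = 0.0104). Pcbp2 had 121, 95.1 and 97.8 in aged and 152, 162, 150 and 162 in young libraries (-0.58, adjusted p = 0.0106). Both kept their calls without any 1 library.

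Among the regulators called higher, Ptbp2, the relative of the polypyrimidine tract binding protein best known from neurons, had 58.3, 38.1 and 63.6 CPM in aged and 35.5, 27.7, 32.5 and 28.9 in young libraries (log2 fold change 0.78, edgeR adjusted p = 0.0218). The call held in 4 of 7 fits with a library left out. Cirbp, the cold-inducible RNA-binding protein, had 138, 119 and 226 CPM in aged and 86.2, 110, 92.6 and 90.5 in young libraries (0.76, adjusted p = 0.0399). Aged replicate 3 stood far above the others, and without it the log2 fold change was 0.44 (adjusted p = 0.0793). The call held in 3 of those fits. Rbmx, the X-linked hnRNP G, had 66.7 ± 7.40 CPM (SD, n = 3) in aged and 48.0 ± 4.64 (SD, n = 4) in young libraries and was higher by 0.48 on the log2 scale (adjusted p = 0.0237), with its call held in 3 of those fits. The other 3 genes called higher in this list had log2 fold changes of 0.31 to 0.46.

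Of the 50 helicases and core assembly factors, 2 were higher and 2 lower (median -0.06). Prpf40b had 14.6, 17.2 and 16.8 CPM in aged and 10.9, 8.55, 9.56 and 10.6 in young libraries (log2 fold change 0.71, edgeR adjusted p = 0.013), and was called without any 1 library. Prpf38b was called higher (0.37) and Ctnnbl1 (-0.54) and Ddx46 (-0.35), an RNA helicase of the branch point step, lower. With a library left out, these calls held in 3, 4 and 1 of 7 fits. Of the 7 proteins of the minor spliceosome, which removes the rare U12-type introns, 2 were higher, Zrsr1 (0.66, adjusted p = 0.0462) and Scnm1 (0.52, adjusted p = 0.021), and the median was 0.24. Their calls held in 1 and 3 of those 7 fits.

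In snRNP assembly PRMT5 methylates Sm proteins and the SMN complex loads them onto RNA. Of its 12 tested genes, 1 was called higher, 2 lower and 9 not, by edgeR (25% called, beside 16.7% of all genes tested, a difference that was not tested). Gemin8 was higher, with 15.5, 23.0 and 18.2 CPM in aged and 11.0, 12.1, 10.5 and 9.82 in young libraries (log2 fold change 0.80, edgeR adjusted p = 0.0135), and kept its call without any 1 library. Gemin5, which binds the snRNA, was lower (-0.59, adjusted p = 0.0242), with 38.7, 29.0 and 26.5 CPM in aged and 47.5, 48.3, 49.2 and 43.8 in young libraries, and Prmt5 was lower (-0.46, adjusted p = 0.0275). With a library left out, the call of Gemin5 held in 2 of 7 fits, without aged replicate 1 and without young replicate 2 (adjusted p up to 0.0768), and that of Prmt5 in 1, without aged replicate 1 (up to 0.0723). The median of the list was -0.14. In the exon junction complex, which marks spliced mRNA, 1 of 5 genes was called, Eif4a3 (-0.34, adjusted p = 0.0397), and its call held only without young replicate 1 (adjusted p up to 0.112).

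**Figure D5:**
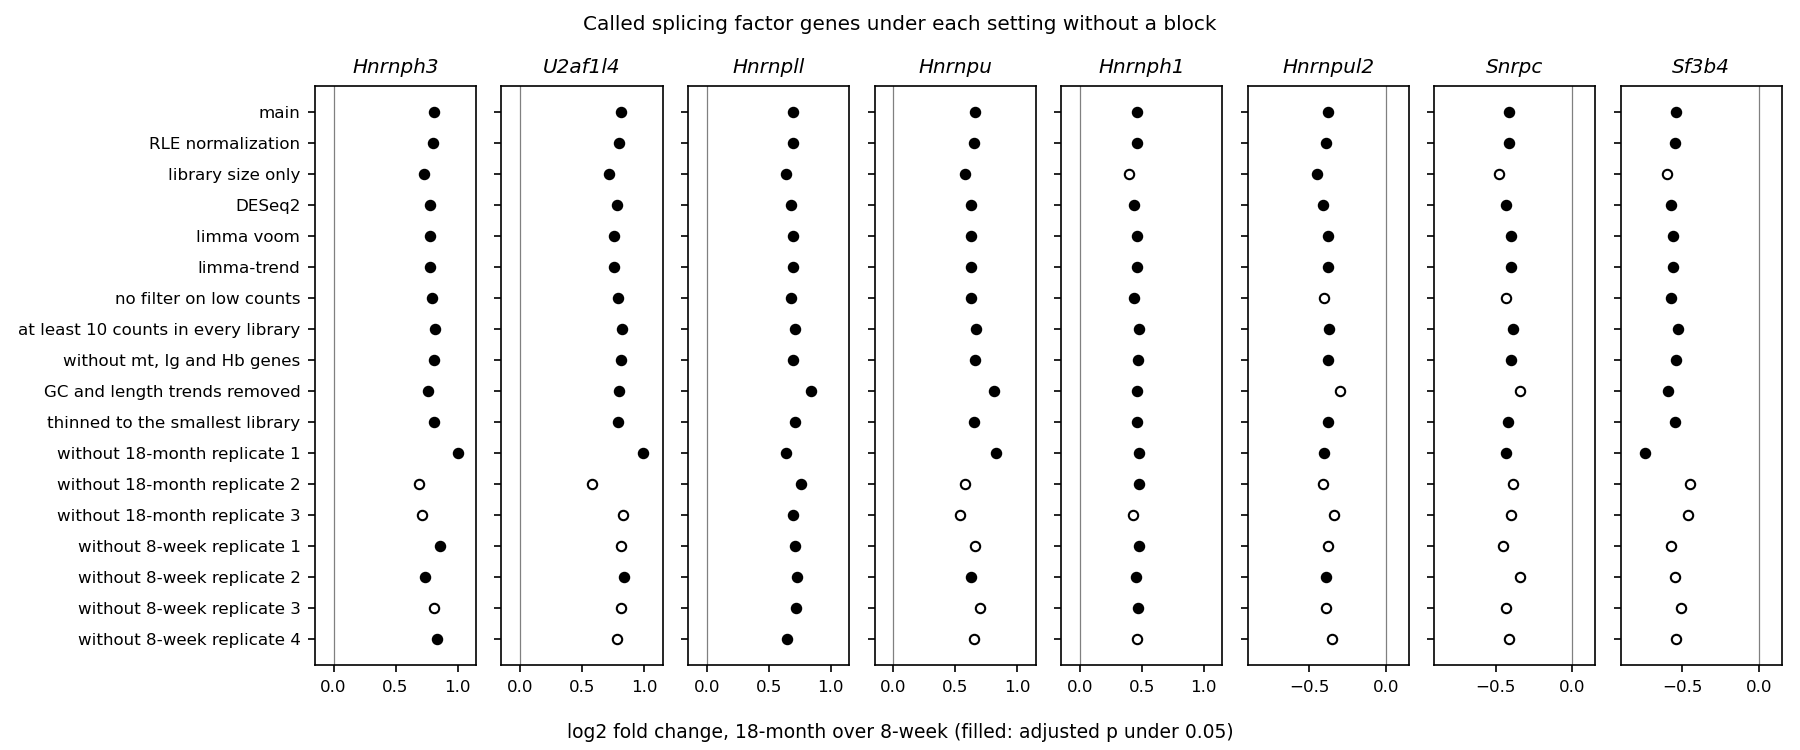
Log2 fold change of the 8 called splicing factor genes under each processing setting that has no replicate block, and with each library left out (filled, adjusted p under 0.05; open, not). The values stay on the same side of 0 in every setting drawn, and Hnrnpll is filled in each of them.

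The plot of settings shows how each call changed with single libraries left out. Such a fit also has fewer samples for every gene, so a lost call alone does not show that a result rests on that library. With aged replicate 1, the library with the highest mitochondrial share and neutrophil marker sum, left out, 6 members were higher and 5 lower. In that fit 21.5% of all genes tested were called, against 16.7% in the main comparison. With aged replicate 3 left out, 1 member was higher and 0 were lower by edgeR, and 8.9% of all genes tested were called. Hnrnpll was the member called in every such fit. The part of the mitochondrial share or of other cells in these differences was not tested. A fit without mitochondrial, immunoglobulin and haemoglobin genes cannot decide it, since it only leaves out the counts of those genes. In that fit 5 members were higher and 3 lower, and 17.5% of all genes tested were called. Scaling to library size only ended the calls of Hnrnph1, Sf3b4 and Snrpc, with log2 fold changes of 0.40, -0.60 and -0.48. Dropping the filter on low counts ended those of Hnrnpul2 and Snrpc, at -0.40 and -0.43 (edgeR adjusted p = 0.0522 and 0.0526).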

How the data were processed

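CD4+CD25+ cells of the spleen, enriched with magnetic beads, gave cDNA by a SMART-Seq kit, and 3 aged and 4 young libraries were analysed. The text of the paper gives another age for the young mice than the labels, which were followed. The authors deposited raw read counts per Ensembl gene for each library, in the layout and naming of HTSeq-count (union, no strand). The submitters' processing notes name mm10, and the aligner is not given in the sources used here. Reads that fell on no gene or on more than 1 (13.1% to 20.9%) were left out, and the line for reads aligned to several places holds 0, without a source that says whether such reads were dropped or counted. The authors also deposited 1 table of the series, whose signal values were checked to be the counts divided by 1 size factor per library. It gave the gene symbols and types and the 25469 genes. Its columns with the authors' own comparison (log2 fold change with its error, p-value, adjusted p) were not used.

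Ages were compared without covariates by the quasi-likelihood test of edgeR 4.0.16 (R 4.3.3), after filterByExpr by group and TMM scaling, with Benjamini-Hochberg adjustment over the 13904 genes tested and a threshold of 0.05. Standard errors come from the F statistic (log2 fold change divided by its square root), and intervals are 95%. TPM was computed from counts and exon length in GENCODE M21 (GRCm38), whose coordinates were matched by Ensembl identifier. The detection limit was 3 counts and covers counting error only, since the cDNA carries no molecular identifiers. The alternatives were DESeq2 1.42.0, voom and limma-trend (prior count 2) of limma 3.58.1, other scalings and filters, GC content and length trends removed, thinning, a replicate block and each library left out. The tests were checked on simulated counts.

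The members and lists were chosen with earlier results of these data known. Values are given per library for the most abundant member of each role group, for up to 4 called members per direction and group with the largest fold change, and for Srsf1, Srsf2, Srsf3, Sf3b1, U2af1, U2af2, Hnrnpa1, Hnrnpl and Hnrnpll. In the related lists at most 3 called genes per direction are named. Of the 169 genes listed there, Khdrbs2 and Esrp1 were not found, Snu13 was matched as Nhp2l1, and Esrp2, Nova1, Nova2, Rbfox1, Rbfox2, Rbfox3 and Gemin4 were under the filter.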

Additional observations from a re-analysis of the deposited data

Results flagged for a closer look

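In Hnrnpab, young replicate 1 had 114 CPM and stood apart from the other 3 young libraries, at 129 to 130 CPM. The gap was 0.938 of the range of the young libraries, above Dixon's 95% critical value for 4 samples. Among the 53 members it was the only one whose young libraries gave such a gap, and chance alone gives about 1 in 20 groups. This statement does not cover the aged libraries. Young replicate 1 was also the lowest of the 7 libraries in 11 of the 53 members, although in Hnrnpab all 3 aged libraries, at 97.9 to 105 CPM, were lower still.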

How the results depend on the processing

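The signs of the 8 called splicing factor genes held under each alternative, while their calls did not. Members called higher numbered 5, and 1 to 6 with a library left out. Members called lower numbered 3, and 0 to 5 with a library left out. Over all genes tested the share called was 16.7%, and 8.9% to 21.5% with a library left out. In the settings named next, other than the size limit, this share was 8.72% to 18.3%. These shares have unlike denominators. With no filter 2221 of 25469 genes were called (8.72%) and with DESeq2 2910 of 25431 (11.4%), beside 2327 of 13904 in the main comparison. The lower count was 5 with RLE scaling, voom, limma-trend, thinning or the GC content and length trends removed, 6 with DESeq2, and 1 with library size only, with no filter, or with a log2 fold change of 0.5 or more in size also required. Related genes called higher numbered 11 (2 to 19 with a library left out), 4 with library size only and 6 at 0.5. Those called lower numbered 8 (3 to 17), and 5 at 0.5. Without aged replicate 1 each of these 4 counts rose, as did the share of all genes called (21.5%, against 16.7%). The cause was not tested, except that the size limit of 0.5 by construction leaves fewer genes.

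The replicate numbers did not pair the samples. Deviations of same-numbered libraries correlated at -0.0915, -0.292 and -0.138, no library correlated best with its own number, and the samples share only a number. With the number as a replicate block, members called higher and lower numbered 0 and 0, and related genes 0 and 1. With the block and the GC content and length trends together, they numbered 1 and 0, and 0 and 1. Over all genes the block left 202 higher and 90 lower calls, against 1362 and 965, so that the share of higher calls went from 58.5% to 69.2% (70.9% with the trends removed as well).

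Of the 722 alternatives of 38 named genes, 546 kept direction and side of the threshold, 147 lost the call, 16 gained it and 13 changed sign, all in genes never called in the main comparison. These were Hnrnpa1 (-0.01 with the block and trends, -0.02 to 0.17 with a library left out), Hnrnpl (-0.02 with library size only, -0.0041 to 0.12 with a library left out), Sf3b1 (0.02 with the trends removed, 0.03 with the block too), Srsf2 (-0.01 with library size only, -0.08 to 0.15 with a library left out) and U2af1 (-0.04 with library size only, -0.01 with the trends removed, with or without the block, and -0.03 to 0.08 with a library left out). The filter on low counts left 3 members untested. Their exons overlap other genes over 34.1% to 85.4% of their length, and the part of depth was not tested.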
